A study of Homo sapiens with 9 samples.

Results

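SNAI2 and 9 further genes that mark a mesenchymal state (SNAI1, ZEB1, TGFBI, FN1, CDH2, VIM, TAGLN, ACTA2 and S100A4) were followed in MiaPaCa2, a human cell line from a pancreatic carcinoma, after the cells had been given supernatant from pancreatic stellate cells. Stellate cells are the fibroblast-like cells of the pancreas. These are 10 of 19775 genes that the array measures by probe sets with 1 annotated gene symbol. They were chosen by name, with the knowledge that SNAI2 and TGFBI lay above the control and ZEB1 below it, so that every comparison of a member with the control is a description without a test. Each gene is given by its brightest probe set (the one whose values average highest across the 9 arrays), and the further probe sets among the 25 of the members serve as a check. The series held 1 Affymetrix array each for cells exposed for 1, 2, 3, 4, 5, 6, 7 and 24 h and 1 array of control cells at 24 h, and no condition had a replicate. All 9 arrays came from the same line, grown to 70% confluence. The titles name naive stellate cells as the treatment, also for the control array, and do not say what the control cells received. The only control was taken at 24 h, so that hours in culture and exposure cannot be told apart in a comparison of the hourly arrays with it. Whether the arrays came from separate cultures is not stated, so that the spread between them may be technical.

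As background, SNAI1, SNAI2 and ZEB1 encode zinc finger repressors that bind E-box sequences in the promoters of epithelial genes such as CDH1, which encodes E-cadherin. They are central to the epithelial to mesenchymal transition, in which carcinoma cells lose cell to cell contacts, build vimentin filaments and secrete matrix. TGF-beta, a cytokine that stellate cells also release, is a known inducer of this programme, and TGFBI is named after its induction by it. MiaPaCa2 is known as a poorly differentiated line with little E-cadherin.

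Because Snail and ZEB proteins bind the E-box, promoter sequence is shown for the members whose control lay outside the range of the exposed arrays, as given further on. RefSeq windows of GRCh38.p14 were found for 7 of the 10 members (SNAI1, SNAI2 and TAGLN are named only). The 250 bases before each start were searched for the E-box CAGGTG on both strands, and a match on the other strand is printed as CACCTG. No other motif was searched, and capitals mark the matches. ZEB1 has 7 windows, of which the one with the most matches is printed (chr10:31318966-31319215, plus strand, 2 matches).
ZEB1: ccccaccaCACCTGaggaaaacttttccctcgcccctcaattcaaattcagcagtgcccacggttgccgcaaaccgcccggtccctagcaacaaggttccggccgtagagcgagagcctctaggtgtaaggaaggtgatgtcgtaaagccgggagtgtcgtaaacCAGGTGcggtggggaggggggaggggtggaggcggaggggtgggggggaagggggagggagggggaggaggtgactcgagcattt
TGFBI has 1 window (chr5:136028738-136028987, plus strand), with no match.
TGFBI: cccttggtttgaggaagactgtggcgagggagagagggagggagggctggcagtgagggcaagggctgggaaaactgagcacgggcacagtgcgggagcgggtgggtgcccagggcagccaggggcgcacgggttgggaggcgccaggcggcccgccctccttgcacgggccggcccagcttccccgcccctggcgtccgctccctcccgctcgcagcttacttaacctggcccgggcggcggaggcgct
VIM has 1 window (chr10:17227991-17228240, plus strand), with no match.
VIM: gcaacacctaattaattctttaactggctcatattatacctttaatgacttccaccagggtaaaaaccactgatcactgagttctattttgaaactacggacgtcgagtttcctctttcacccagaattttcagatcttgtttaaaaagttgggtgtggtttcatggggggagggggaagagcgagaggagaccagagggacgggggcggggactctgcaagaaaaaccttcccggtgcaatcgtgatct
S100A4 has 1 window (chr1:153545807-153546056, minus strand), with 1 match.
S100A4: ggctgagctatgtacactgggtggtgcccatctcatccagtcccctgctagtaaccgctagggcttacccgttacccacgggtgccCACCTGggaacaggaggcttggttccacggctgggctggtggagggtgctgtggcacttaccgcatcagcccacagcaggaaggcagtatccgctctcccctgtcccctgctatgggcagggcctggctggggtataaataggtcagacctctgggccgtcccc
A further ZEB1 window held 1 match and the other 5 held none, and the windows of FN1, CDH2 and ACTA2 held none, so that 3 of 15 member windows held a match. Of all 35116 windows 17.5% held at least 1 match and 2.53% at least 2. A match describes these letters only, and binding was not measured.

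The labelled cell type was set against its markers. KRT8, KRT18 and KRT19, keratins of simple epithelia, had log2 values of 10.98 to 11.36, 13.39 to 13.55 and 10.05 to 10.38 over the 9 arrays. CDH1 stayed between 3.26 and 3.66 and the epithelial adhesion gene EPCAM between 2.29 and 2.81, both under the mean of 5 that a gene needed to be tested. The keratins were thus present, and CDH1 and EPCAM were not above that minimum on any array. Of other junction genes, OCLN (9.86 to 10.31), TJP1 (10.04 to 10.25) and CLDN4 (6.32 to 7.24) were above it on all 9 arrays. So were DSP (8.63 to 8.94) and PKP3 (7.65 to 8.02). CLDN3, CLDN7 and MARVELD3 stayed under it.

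Array medians were 4.92 to 4.97 on the log2 scale. The control and the 5 h array stood apart, with median correlations of 0.9905 and 0.9906 with the others across probe sets. The other 7 arrays had 0.9957 to 0.9968. The 5 h array held the lowest hourly value for 38.7% of the 12402 genes tested, and its difference between the 3' and 5' probe sets of ACTB, a sign of RNA quality, was 2.24 (the other arrays 1.59 to 1.97). Values that turn on the 5 h array are given with and without it. All 10 members had a mean of at least 5, but SNAI1 (5.09), SNAI2 (5.10), CDH2 (5.17) and FN1 (5.39) only just, and SNAI2 passed through its exposed arrays alone, since its control value was 3.95.

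SNAI2, which encodes the repressor Slug, showed the widest measured difference from the control among the brightest probe sets of the members. Its log2 expression was 4.64 at 1 h, 5.62 at 2 h, 5.32 at 3 h, 5.30 at 4 h, 5.50 at 5 h, 5.30 at 6 h, 5.33 at 7 h and 4.94 at 24 h, against 3.95 in the control. All 8 exposed arrays lay above the control, the 1 h and 24 h arrays were the lowest of them and the 2 h array was the highest. The differences from the control were thus 0.68 at 1 h, 1.67 at 2 h (3.17-fold) and 0.99 at 24 h (1.98-fold), and the mean of the 7 hourly arrays was 5.29 ± 0.31 (SD, n = 7), 1.33 above the control (2.52-fold). Its scatter about a line over 1 to 7 h was 0.31 on the log2 scale, higher than that of 98.9% of the genes tested, for which the median was 0.096. The control value lay below the minimum of 5 and below the median of its array (4.94), where background limits what a probe set can show, so that these folds are of measured signals only. SNAI2 has 1 probe set on the array, so that no other probe set could check these values.

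SNAI1, which encodes the related repressor Snail, varied little. It measured 5.09 ± 0.06 (SD, n = 7) in the hourly arrays, 4.97 at 24 h and 5.18 in the control. The 8 exposed values lay below the control by 0.02 to 0.21, with the smallest gap at 2 h and the largest at 24 h. At 2 h, where SNAI2 was highest, SNAI1 also had its highest exposed value (5.16), but its value at 1 h, where SNAI2 was lowest, was close to it (5.12). Over the 8 exposed arrays Pearson's r between SNAI1 and SNAI2 was 0.30 (exact permutation p = 0.489).

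ZEB1, a repressor of the same epithelial targets, was lower than the control on all 8 exposed arrays. Its values were 9.26 at 1 h, 9.06 at 2 h, 9.17 at 3 h, 9.17 at 4 h, 9.18 at 5 h, 9.18 at 6 h, 9.01 at 7 h and 9.27 at 24 h, with 9.50 in the control. The hourly mean of 9.15 ± 0.09 (SD, n = 7) was 0.35 below the control (0.786 of its level). The lowest arrays were those at 7 h and 2 h, and the 24 h array came closest to the control, at a difference of -0.22.

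The 4 probe sets of ZEB1 differed in how they stood to the control. Probe set 210875_s_at lay below it on 7 of 8 exposed arrays (hourly mean -0.26 against the control), 239952_at on 5 of 8 (-0.08) and 212758_s_at on 3 of 8 (0.07). At 24 h 212758_s_at was 0.48 above the control, where the brightest probe set was 0.22 below it. The dim probe set 239952_at (mean 4.65) had a slope of -0.097 ± 0.016 per h (SE), from 4.96 at 1 h to 4.32 at 7 h (limma over the member probe sets, no test), and the brightest one in the same fit a slope of -0.018 ± 0.018. The lower ZEB1 level therefore rests on 2 of the 3 probe sets with a mean of at least 5.

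**Figure D1:**
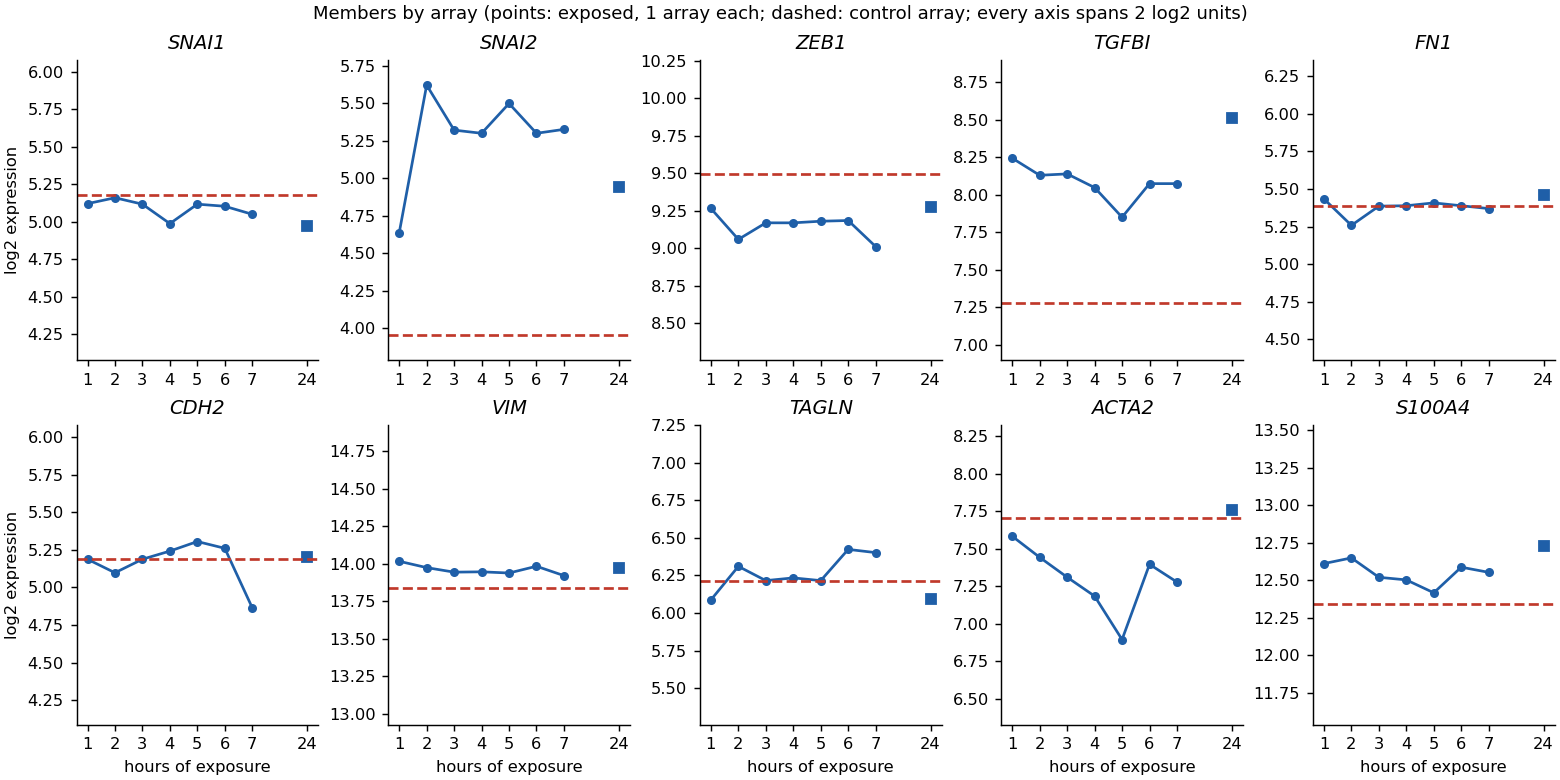
Log2 expression of each of the 10 members (vertical axis, spanning 2 log2 units in every panel) against hours of exposure (horizontal axis, with a break between 7 and 24 h). Points are single exposed arrays and the dashed line is the control array: SNAI2 and TGFBI lie above it throughout, ZEB1 and SNAI1 below it, and ACTA2 crosses it at 24 h.

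TGFBI, a secreted matrix protein that binds integrins and collagen, was higher than the control at every time. It measured 8.24 at 1 h, 8.13 at 2 h, 8.14 at 3 h, 8.05 at 4 h, 7.85 at 5 h, 8.07 at 6 h, 8.07 at 7 h and 8.51 at 24 h, against 7.28 in the control. The 24 h array was the highest and the 5 h array the lowest, and no exposed array overlapped the control. The hourly mean of 8.08 ± 0.12 (SD, n = 7) was 0.80 above the control (1.74-fold), and 0.84 without the 5 h array. At 24 h the difference was 1.23 (2.35-fold).

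SNAI2 was lowest at 1 h and 24 h, the arrays on which TGFBI was highest. Over the 8 exposed arrays Pearson's r between them was -0.65 (exact permutation p = 0.0923) and Spearman's rank coefficient -0.52 (exact permutation p = 0.185), and r was -0.18 without the 1 h and 24 h arrays, so that the relation rests on those arrays. It did not pass adjustment over the 55 relations computed (Benjamini-Hochberg adjusted permutation p = 0.344 for r and 0.471 for the rank coefficient). The pattern was not particular to TGFBI. ZEB1, FN1 and ACTA2 were also highest at 1 h and 24 h, with r of -0.71, -0.73 and -0.64 with SNAI2. None of these passed adjustment (adjusted permutation p = 0.344 for each). TAGLN (0.65) and SNAI1 (0.30) had a positive r with SNAI2.

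FN1, which encodes the matrix protein fibronectin, did not stand apart from the control on its brightest probe set. The hourly arrays measured 5.38 ± 0.06 (SD, n = 7), the 24 h array 5.46 and the control 5.38. The other 6 probe sets of FN1 had means of 2.46 to 4.64, under the minimum of 5, with hourly differences from the control of -0.08 to 0.37. CDH2, which encodes N-cadherin, the cadherin that often replaces E-cadherin in mesenchymal cells, was also flat, at 5.16 ± 0.15 (SD, n = 7), 5.20 at 24 h and 5.19 in the control. Its lowest value was 4.87 at 7 h and its highest 5.31 at 5 h. In CDH2 and in TAGLN the control carried exactly the value of 2 hourly arrays, to 8 decimals. Of the genes tested 7.56% had a control value equal to that of an exposed array, and 39.5% had equal values on any arrays.

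VIM, the intermediate filament protein vimentin, varied little and lay above the control on each exposed array. The hourly arrays gave 13.96 ± 0.03 (SD, n = 7), from 13.92 at 7 h to 14.02 at 1 h, the 24 h array 13.97 and the control 13.84. The difference of 0.12 from the control was 1.09-fold. A second probe set, 1555938_x_at, did not share this course: it measured 7.24 at 1 h, 7.60 at 3 h, 8.29 at 5 h, 7.24 at 7 h, 6.61 at 24 h and 7.38 in the control. It was thus highest on the 5 h array, which stood apart, and lowest at 24 h, where it was 0.77 below the control.

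ACTA2, smooth muscle alpha-actin, a marker of activated fibroblasts, was the member that moved most within the exposure besides SNAI2. It measured 7.58 at 1 h, 7.44 at 2 h, 7.31 at 3 h, 7.18 at 4 h, 6.90 at 5 h, 7.40 at 6 h, 7.28 at 7 h and 7.76 at 24 h, with 7.70 in the control. The values stepped down from 1 h to 5 h, stepped up at 6 h and lay 0.06 above the control at 24 h, and 7 of the 8 exposed arrays lay below the control. The hourly mean was 7.30 ± 0.22 (SD, n = 7) and 0.40 below the control, or 0.34 below it without the 5 h array. Both other probe sets were dim, with means of 3.19 and 3.02, and lay below the control on all 8 exposed arrays (hourly means -0.06 and -0.29).

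TAGLN encodes transgelin, an actin-binding protein of smooth muscle and fibroblasts, and its probe sets disagreed. The brightest, 226523_at, measured 6.27 ± 0.12 (SD, n = 7) in the hourly arrays, 6.09 at 24 h and 6.22 in the control, with 4 exposed arrays above the control and 2 below it. Probe set 1555724_s_at measured 5.82 to 5.98 in the hourly arrays, 5.98 at 24 h and 6.90 in the control. Probe set 205547_s_at measured 4.84 to 5.32 in the hourly arrays, 5.66 at 24 h and 6.50 in the control. In both of these all 8 exposed arrays lay below the control, by 0.96 and 1.43 in the hourly mean. The choice of probe set was close, with means over the 9 arrays of 6.24, 6.05 and 5.30, and the mean over all 3 gave a difference of -0.78 from the control.

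S100A4, a calcium-binding protein linked to motility that is also called fibroblast-specific protein, was somewhat higher in every exposed array. The values were 12.61 at 1 h, 12.65 at 2 h, 12.52 at 3 h, 12.50 at 4 h, 12.42 at 5 h, 12.59 at 6 h, 12.55 at 7 h and 12.73 at 24 h, against 12.34 in the control. The 24 h array was the highest and the 5 h array the lowest. The hourly mean was 0.20 above the control (1.15-fold) and the 24 h array 0.39 above it (1.31-fold).

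**Figure D2:**
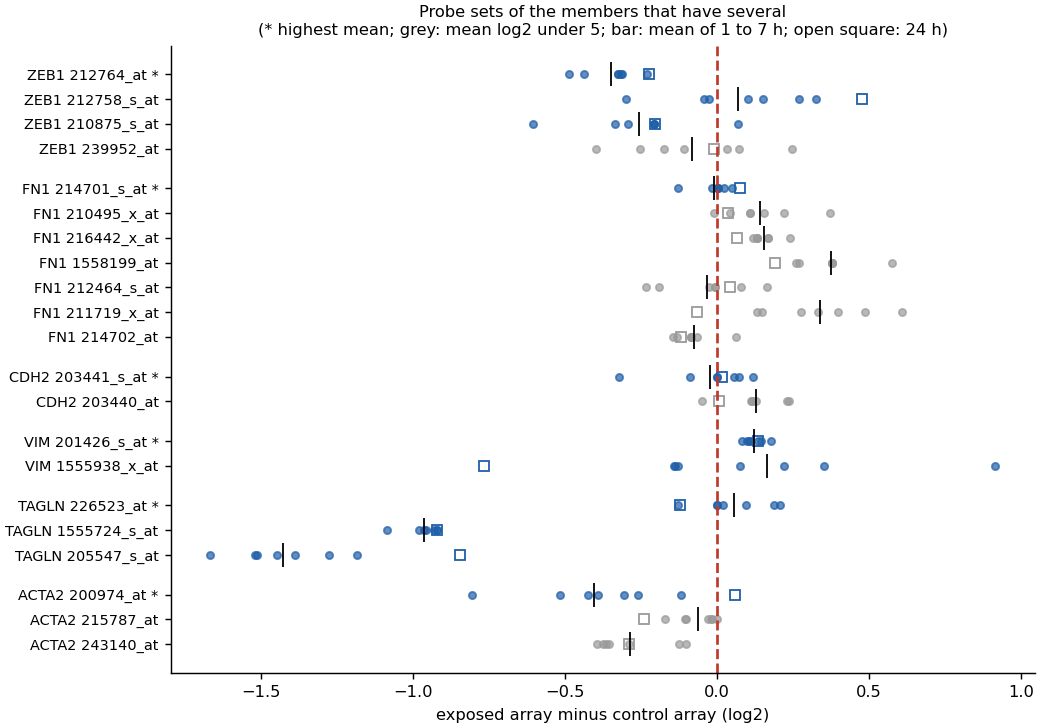
Exposed array minus control array (horizontal axis, log2) for every probe set of the 6 members that have several; filled circles are the hourly arrays, the open square the 24 h array, the black bar the mean of the hourly arrays, and grey marks probe sets with a mean under 5. The 2 lower TAGLN probe sets lie at -0.96 and -1.43 in the mean while the brightest one lies at 0.05.

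Set side by side, 4 members had the control below all 8 exposed arrays (SNAI2, TGFBI, VIM and S100A4) and 2 had it above all 8 (SNAI1 and ZEB1). Of all genes tested, 21.0% had the control below and 24.1% above every exposed array. The 8 differences of a gene share the control array, and the members were chosen with this comparison known, so nothing is read from these counts. At least 2-fold above the control were SNAI2 from 2 to 7 h and TGFBI at 24 h, 7 of the 80 member values. Of all genes 0.919% reached that on at least 1 exposed array and 0.0968% on all 8. By array it was 0.411% at 1 h, 0.411% at 2 h, 0.274% at 3 h, 0.331% at 4 h, 0.314% at 5 h, 0.323% at 6 h, 0.298% at 7 h and 0.468% at 24 h. By the brightest probe sets no member value was 2-fold below the control, which 1.89% of all genes were on at least 1 array. Of the other TAGLN probe sets, 205547_s_at was 2-fold below it from 1 to 7 h and 1555724_s_at at 5 h. At a 1.5-fold threshold, by the brightest probe sets, 15 member values were above the control and 1 was below it, that of ACTA2 at 5 h. All 15 belonged to SNAI2 and TGFBI, which were chosen for lying above the control, and 6.10% of all genes were 1.5-fold above and 9.86% 1.5-fold below it on at least 1 exposed array.

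**Figure D3:**
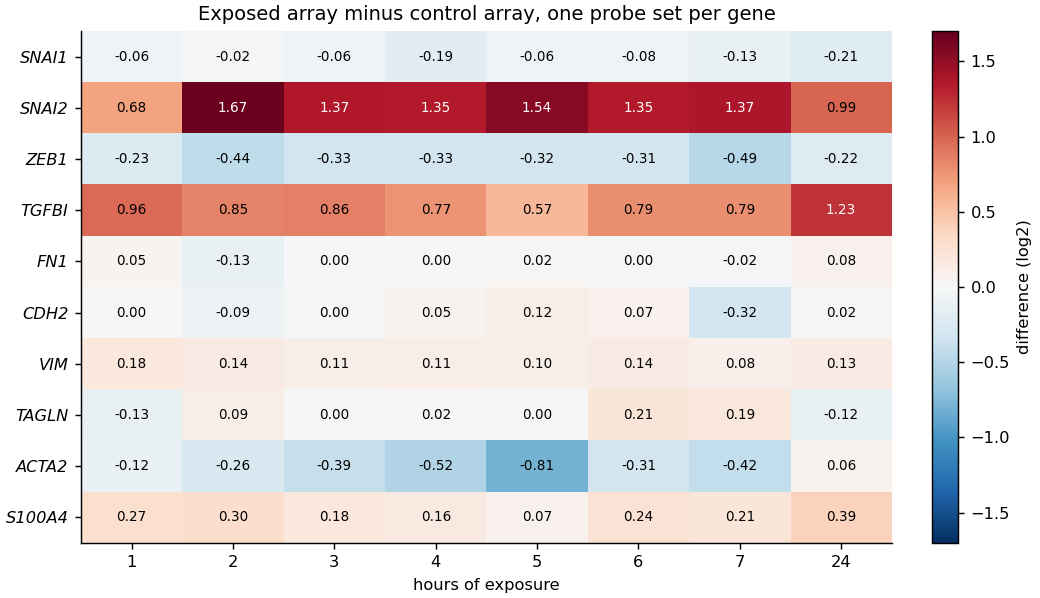
Difference between each exposed array and the control array (colour and printed values, log2) for the brightest probe sets of the 10 members (rows) at each time (columns). SNAI2 reaches 1.67 at 2 h and TGFBI 1.23 at 24 h, while the lowest value is -0.81 for ACTA2 at 5 h.

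Change across the exposed arrays does not use the control and could be tested. No control array was taken at 1 to 7 h. Exposure and hours in culture therefore cannot be told apart in the slope or in the 24 h comparison below. In limma's fit over 12402 genes, with the residuals of the 7 hourly arrays from a straight line as the error, none of the 10 members passed for the slope over 1 to 7 h (1 of 10 had an unadjusted p under 0.05), and 0% of all genes passed, while 1944 of them (15.7%) had an unadjusted p under 0.05. The member with the smallest p was TAGLN, with a slope of 0.042 ± 0.016 per h (SE; 95% confidence interval 0.005 to 0.079; limma adjusted p = 0.273; exact permutation of the hours, two-sided, unadjusted p = 0.0484). Its probe set 205547_s_at had a slope of -0.002. The slope of SNAI2 was 0.057 ± 0.046 per h (interval -0.048 to 0.162; limma adjusted p = 0.575; exact permutation p = 0.423) and turned to -0.038 without the 1 h array, so that its sign rests on the step from 1 to 2 h. TGFBI had -0.032 ± 0.019 per h (interval -0.075 to 0.011; limma adjusted p = 0.437) and ACTA2 -0.051 ± 0.032 (interval -0.123 to 0.021; limma adjusted p = 0.463). Without the 5 h array ACTA2 gave -0.036. The remaining 6 slopes lay between -0.019 and 0.003 per h, and their intervals do not exclude small changes.

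The 24 h array was then set against the mean of the 7 hourly arrays. None of the 10 members passed (limma, 2 of 10 with an unadjusted p under 0.05), and 1 of all genes did (0.00806%). Of all genes 1946 (15.7%) had an unadjusted limma p under 0.05 here. TGFBI was 0.43 ± 0.11 (SE) higher at 24 h, with a 95% confidence interval of 0.19 to 0.68 (limma unadjusted p = 0.00301, adjusted p = 0.142). With array weights its adjusted p was 0.0497 in limma, and over the other alternatives it ran from 0.0738 to 0.292. ACTA2 was 0.46 ± 0.18 higher (interval 0.05 to 0.87; limma adjusted p = 0.269) and S100A4 0.18 ± 0.09 higher (interval -0.02 to 0.38; limma adjusted p = 0.367). SNAI2 was 0.35 ± 0.26 lower, with an interval of -0.94 to 0.25 (limma adjusted p = 0.577). The fit takes the lone 24 h array to vary as the hourly ones did, and it shares those arrays with the comparison that chose the members.

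**Figure D4:**
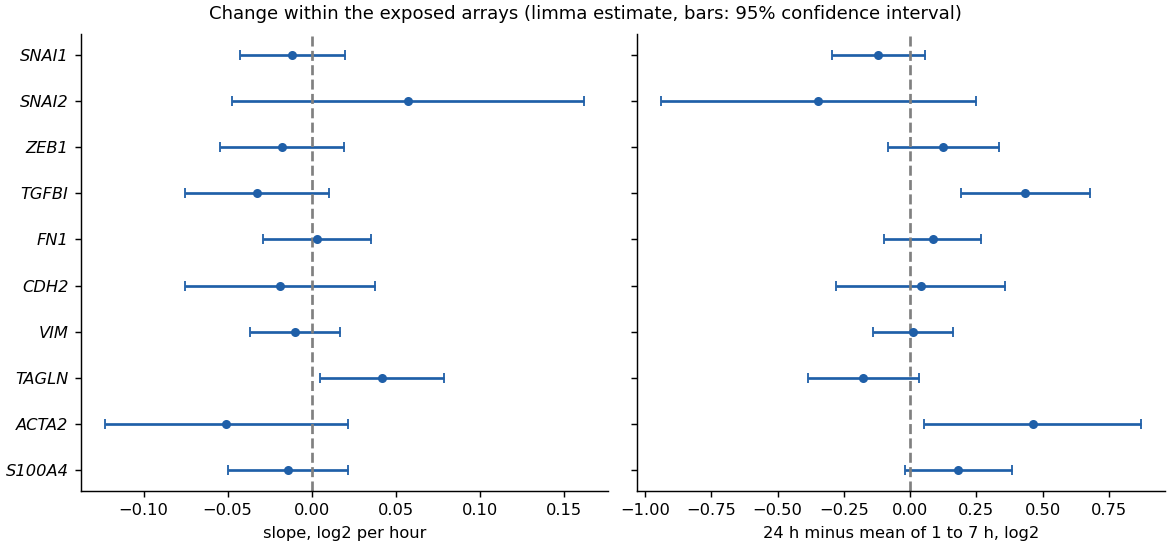
Slope over 1 to 7 h (left, log2 per hour) and 24 h array minus the hourly mean (right, log2) for the 10 members, as limma estimates with 95% confidence intervals. The intervals of TAGLN for the slope and of TGFBI and ACTA2 for the 24 h difference leave out 0, and none of these passed adjustment over all genes.

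TGFBI, S100A4 and ACTA2 varied together across the exposed arrays. S100A4 and ACTA2 had a Pearson's r of 0.96 over the 8 arrays (exact permutation p = 0.000843, adjusted over 55 relations 0.0327) and a Spearman's rank coefficient of 0.95 (exact permutation p = 0.00114, adjusted 0.0627). TGFBI and ACTA2 had an r of 0.94 (exact permutation p = 0.00119, adjusted 0.0327) and a rank coefficient of 0.91 (exact permutation p = 0.00298, adjusted 0.0819). Without the 5 h and 24 h arrays, the farthest from the median, r was 0.82 and 0.85, and without the 5 h array alone 0.92 for both pairs. TGFBI and S100A4 had an r of 0.89 (exact permutation p = 0.00556, adjusted 0.102) that fell to 0.49 without the 5 h and 24 h arrays. Of the other genes tested, 1.04% had an r with ACTA2 at least as high as that of S100A4 and 1.81% as high as that of TGFBI. The difference between the 3' and 5' probe sets of ACTB had an r of -0.66 with ACTA2 (exact permutation p = 0.0783; rank coefficient -0.60, exact permutation p = 0.132), -0.65 with S100A4 (p = 0.0793 by exact permutation; rank coefficient -0.64, p = 0.0962) and -0.41 with TGFBI (p = 0.296 by exact permutation; rank coefficient -0.44, p = 0.275), of which none passed adjustment. Without the 5 h array r was -0.22, -0.30 and 0.13. Its part in these relations was not tested. The control did not lie on either relation: its ACTA2 value of 7.70 was near that of the 24 h array, while its TGFBI and S100A4 values were the lowest of the 9.

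**Figure D5:**
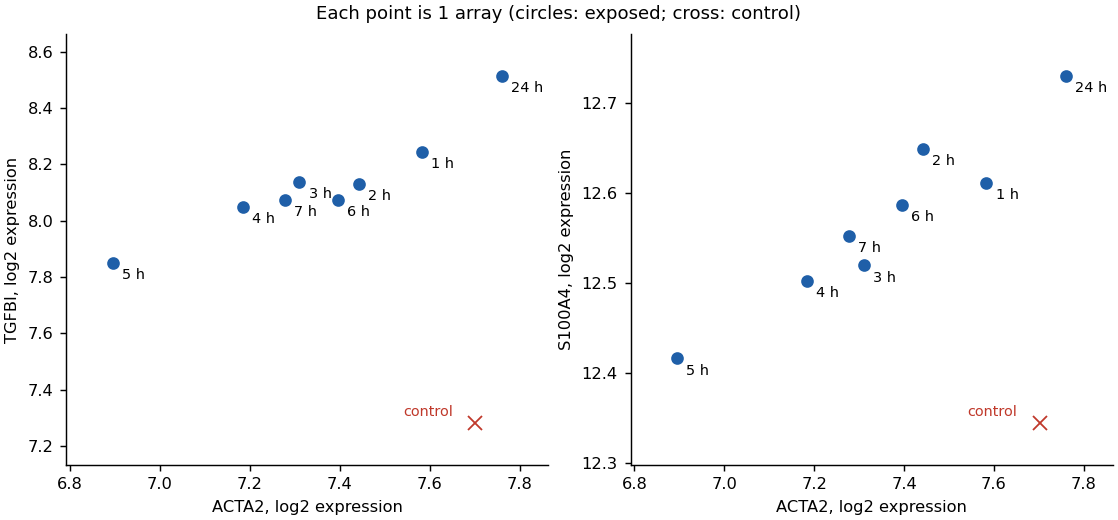
TGFBI (left) and S100A4 (right) against ACTA2, all in log2 expression, with 1 point per array labelled by hours of exposure and a cross for the control. The 8 exposed arrays run from the 5 h array at the lower left to the 24 h array at the upper right, and the control lies below them in both panels.

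The genes with the most alike pattern were named by Pearson's r, as a description of arrays that share 1 control. They were the 3 highest among genes with an SD of at least 0.2, 2011 over the 9 arrays and 1382 over the 8 exposed arrays. Over the 9 arrays they were MAP3K14 (0.97), LOC105373418 (0.95) and CCN1 (0.94) for SNAI2, TM4SF18 (0.99), PLCG2 (0.98) and ELK3 (0.98) for TGFBI, and SOCS7 (0.99), ZNF117 (0.98) and KMT2A (0.97) for ZEB1. Over the 8 exposed arrays they were MAP3K14 (0.94), E2F7 (0.87) and AMOTL2 (0.87) for SNAI2, ZNF805 (0.97), SEL1L3 (0.97) and PAM (0.97) for TGFBI, and MORC4 (0.98), ZNF117 (0.95) and MAP3K21 (0.94) for ZEB1. MAP3K14 and ZNF117 stood in both sets. ZEB1 itself had an SD under 0.2, 0.139 over the 9 arrays and 0.0904 over the 8 exposed ones. TGFBI had 0.19 over the 8 exposed arrays.

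Other genes of the transition were taken from lists by function. In limma's comparison of the 7 hourly arrays with the control, 13.9% of all genes passed, 5.85% as higher and 8.02% as lower. The lone control array, which stood apart, is taken to vary as the hourly ones did, so that its own spread is not measured in any of these calls. Of 12 further transcription factors of the transition on the array only 3 had a mean of at least 5, TCF3, SOX4 and SOX9, and none of these passed (differences of 0.14, 0.29 and 0.09; median 0.14, with -0.01 over all genes). ZEB2 and TWIST1 stayed between 2.94 and 3.16 and between 2.77 and 3.17 over the 9 arrays.

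Of 15 partners and regulators of Snail and ZEB proteins, 2 passed as higher and 1 as lower (median -0.09). The casein kinase gene CSNK1E was 0.81 ± 0.07 (SE) above the control (limma adjusted p = 0.000643), with 8.11 in the hourly mean, 7.92 at 24 h and 7.31 in the control. LOXL2, a lysyl oxidase that is known to bind and stabilise Snail, was 0.44 ± 0.09 higher (limma adjusted p = 0.0194). BTRC, the ubiquitin ligase subunit that marks phosphorylated Snail for degradation, was 0.64 ± 0.10 lower (limma adjusted p = 0.00672). The corepressor genes CTBP1 (-0.24) and CTBP2 (-0.13), through which ZEB1 acts, did not pass. In the mean over all probe sets BTRC differed by -0.03 and LOXL2 by 0.27 (limma adjusted p = 0.86 and 0.0834), and neither passed, while CSNK1E differed by 0.52 (limma adjusted p = 0.00309).

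Epithelial genes were measured by the same comparison. Of 15 epithelial genes with a mean of at least 5, only the protease inhibitor gene SPINT1 passed, as higher (0.34 ± 0.09; limma adjusted p = 0.0442), and the median was 0.11. The count as higher ran from 0 to 3 over the alternatives. SPINT1 did not pass when any 1 of the hourly arrays other than that at 5 h was left out. It also did not pass in the mean over its probe sets, where it differed by 0.23, nor with no filter, with robust estimation or without the hour in the fit. KRT18 differed by 0.06 ± 0.07 (limma adjusted p = 0.682). Among 4 measured cadherins and catenins CDH3, which encodes P-cadherin, was higher by 0.38 ± 0.07 (limma adjusted p = 0.0117). It had 5.18 in the hourly mean and 4.80 in the control, and so passed the minimum of 5 only through the exposed arrays. The catenin genes CTNNB1 (0.01), CTNNA1 (0.25) and JUP (0.05) did not pass.

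None of 15 genes of the actin and contractile apparatus passed (median 0.01). Of 9 matrix and adhesion genes SDC1, the cell surface proteoglycan syndecan, passed as lower (-0.52 ± 0.10; limma adjusted p = 0.0119), and the fibronectin receptor gene ITGA5 did not differ beyond its error (-0.003 ± 0.087). Of 9 genes of the S100 family other than S100A4, S100A2 passed as lower (-1.19 ± 0.14; limma adjusted p = 0.0018), at 8.56 in the hourly mean, 8.83 at 24 h and 9.74 in the control, the opposite direction to S100A4. The median of the 9 was 0.17, and apart from S100A2 only S100A1 (-0.06) was lower. S100A5 (0.38), S100A13 (0.31) and S100A6 (0.29) were higher, as S100A4 was, and did not pass. Of 6 further intermediate filament genes the nuclear lamin gene LMNB1 passed as lower (-0.46 ± 0.12; limma adjusted p = 0.0338), but missed the threshold when the 2 h or the 3 h array was left out (limma adjusted p = 0.0694 and 0.0561). Without the 5 h array the counts of genes that passed as higher were 3 in the actin list, 3 in the S100 list, 2 among cadherins and catenins, 2 among epithelial genes, 1 among matrix and adhesion genes and 2 among leukocyte markers, and 2 partners of Snail and ZEB passed as lower. More of all genes passed in that setting as well, 2889 of 12402 in either direction, against 1721 with the 5 h array. None of the genes in these lists passed for the slope or for 24 h against the hourly mean, where at most 1 of all genes did.

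Markers of the stellate cells that gave the supernatant were measured beside the members, since carried-over cells or their RNA would share mesenchymal genes. Of 14 markers 7 had a mean of at least 5, and 3 passed as higher, COL1A2 (0.68 ± 0.13), COL3A1 (0.94 ± 0.11) and RGS5 (0.34 ± 0.07), with limma adjusted p-values of 0.0119, 0.00201 and 0.0135. The summed linear level of all 14 was 6785 to 7546 in the hourly arrays, 7975 at 24 h and 5365 in the control. Without COL1A2 and RGS5, the brightest of them, that of the other 12 was 465 to 517, 469 and 418. The control was the lowest array in both sums. The 7 under the minimum were LUM (2.12 to 2.52), POSTN (2.69 to 3.11), FAP (3.41 to 3.85), PDGFRB (3.80 to 4.12), PDGFRA (4.15 to 4.66), PDPN (4.33 to 4.66) and DES (4.69 to 4.88). The 4 that were tested and did not pass were COL1A1 (7.25 to 7.63), THY1 (5.55 to 5.84), GFAP (4.95 to 5.40) and DCN (4.82 to 5.36). DCN was lowest in the control (4.82) and 0.41 higher in the hourly mean. It passed the minimum of 5 only through the exposed arrays, so that nothing is read from its difference. COL1A2 was -0.20 and RGS5 -1.12 against the control by the other probe sets that the authors kept in a filtered table, so that these directions depend on the probe set. Of 3 leukocyte markers LYZ, the lysozyme gene, passed as higher (2.38 ± 0.11; limma adjusted p = 6.31e-05; 1.19 in the mean over its probe sets), and of 3 endothelial markers TEK (0.45) and EMCN (0.38) did, EMCN not without the 2 h or the 3 h array (limma adjusted p = 0.0547 and 0.0525). In the mean over its probe sets EMCN differed by 0.28 and did not pass, nor did it in the filtered table or without the hour in the fit. The other tested markers, CD14 (0.48), CD74 (0.11) and PECAM1 (0.08), did not pass. The leukocyte markers PTPRC (mean 3.6) and CD3E (4.8) and the endothelial markers KDR (3.0), VWF (4.4) and CDH5 (4.5) were under the minimum. The part of these markers in the members' differences was not tested, and a change in the mix of cells cannot be told apart from a change of RNA per cell.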

How the data were processed

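The authors deposited log2 expression values of 9 arrays, made with RMA per the submitters' processing notes (background correction, normalization between arrays and 1 value per probe set), with no version given. The deposited table held 54675 probe sets, of which 41097 had 1 gene symbol in the platform annotation, 1801 several and 11777 none. Symbols were updated through the Entrez ID for 41043 of them (GRCh38.p14 gene table). The authors' filtered table held 6370 probe sets, whose log2 values differed from these by at most 5.00e-09. From these values 19775 genes were formed, each by its brightest probe set, and the 12402 with a mean of at least 5 were tested.

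limma 3.58.1 in R 4.3.3 (lmFit, eBayes, two-sided, Benjamini-Hochberg over 12402 genes, threshold 0.05) fitted the centred hour and indicators of the 24 h and the control array. The fit had 5 residual and 3.72 prior degrees of freedom. P-values measure only the spread between these arrays, and their small number limits precision. Member comparisons with the control were not tested. The members, the lists and the tests were chosen with earlier results of these data known. Named genes were all members, in each list up to 4 genes that passed with the largest difference, CDH1 and KRT18 always, and for SNAI2, TGFBI and ZEB1 the 3 most alike genes. Other genes given by value, such as KRT8, EPCAM, ZEB2, CTBP1, ITGA5, LUM and DCN, were named after their values were seen. The 1 gene that passed at 24 h is not reported here. Permutation tests over 5040 orders of the hourly and 40320 of the exposed arrays were exact and two-sided. The alternatives were other filters, probe set averages, another normalization, weights, time scales, the filtered table and leaving out each hourly array. Python 3.11.15 with pandas 2.3.3 was used, and matplotlib 3.10.9 drew the figures.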

Additional observations from a re-analysis of the deposited data

How the results depend on the processing

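No paired analysis was possible because each condition had 1 array and no numbers are shared between conditions. Of 318 recomputed slopes and 24 h differences of the members, 316 stayed on their side of the threshold and 2 moved past it (TGFBI at 24 h with array weights, and TAGLN by the unadjusted exact permutation of the hours), which put the members passed at 1 in each case; 14 that passed nowhere had the other sign. Some settings cannot move a member's difference from the control: no filter, a mean of at least 6, robust estimation, the log2 hour and a fit without the hour. They are included in the next count, so that it overstates stability. Of 159 recomputed differences of members from the control, 153 moved by less than the SD of the hourly arrays and 5 by more. That of ZEB1 turned to 0.068 in the filtered table, where ZEB1, FN1 and TAGLN have different probe sets. TAGLN also turned, to -0.78 in the mean over probe sets and -1.43 in the filtered table, and FN1 to 0.34 in the latter. There COL1A2 was -0.20 and RGS5 -1.12, and RGS5 was -0.0712 in the mean over probe sets. Genes passed for the slope were 15 with a mean of at least 6, 25 with robust estimation, 5 with array weights, 74 on the log2 hour, and 0 to 73 on leaving out 1 array (73 without the 5 h array). For 24 h against the hourly mean they were 0 with no filter, with probe set means, with the shift to 1 median and in the filtered table, 11 with robust estimation, 135 with array weights, 2 on the log2 hour and 0 to 9 on leaving out 1 array. For the hourly mean against the control 1721 passed, against 2741 with array weights, 162 of 3624 in the filtered table, and 1080 to 2889 on leaving out 1 array (1080 without 3 h, 1119 without 4 h, 2889 without 5 h). Another quantile normalization gave 1180 higher and 904 lower genes, against 726 and 995. At 1.5-fold in place of 2-fold, member values by the brightest probe sets were 15 above the control (all of SNAI2 and TGFBI, chosen for this direction) and 1 below it. Of all genes 6.10% and 9.86% were past it on at least 1 array. Alternatives for the control outside the range of the exposed arrays were chosen after seeing the data; the shares of all genes ran from 19.0% to 23.0% (below) and 17.7% to 27.9% (above), and the members from 1 to 4 and 1 to 2. The lowest of these member counts came from the filtered table and from a mean of at least 6, which measured fewer of the members. Low signal limits SNAI1, SNAI2, CDH2 and FN1.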
